A study of Mus musculus with 8 samples.

Results

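Clusterin, the complement components C3, C1qa, C1qb, C1qc and Cfp, the complement receptor C3ar1 and the membrane regulators Cd55 and Cd59a were examined in HSCs, the haematopoietic stem cells from which the blood lineages are renewed. These 9 genes were chosen by name with earlier results of these data known, so counts among them are descriptions and not tests. Each matched 1 row of the 38172 genes in the deposited table. The cells came from wild-type C57BL/6 mice of 4 months (young) or 24 months (old) and had the sort label SP-KSL-CD150+: side population cells, which pump out dye, that carry Kit, Sca-1 and CD150 and lack lineage markers. Each age had 2 biological replicates, numbered 13 and 14, and each replicate was sequenced as 2 technical libraries, 8 libraries in all, whose values were averaged here, so that n = 2 per age. How many animals went into a replicate is not stated in the labels, so the p-values below measure the spread between these samples. No group carried a transgene, deletion or treatment according to the labels.

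Complement is a set of plasma and membrane proteins that act in sequence. C1q binds antibodies or cell surfaces and starts the classical pathway, which cleaves C4 and C2 and then C3, the component on which all pathways converge. Properdin, the product of Cfp, stabilises the alternative pathway enzyme that cleaves more C3, and the terminal proteins build a membrane pore. Host cells carry regulators: CD55 speeds the decay of the C3-cleaving enzymes, CD59 blocks the pore, and clusterin, a secreted chaperone, binds the soluble terminal complex. Liver makes most plasma complement, whereas macrophages are a main source of C1q, and myeloid cells also make C3 and properdin.

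The values in the deposited table, called scaled values below, behave as reads multiplied by 1 factor per library, and FPKM is the same value per transcript length, used to compare levels between genes. Scaled totals were between 40.7 M and 44.2 M per library, and the spacing of low values placed the reads before scaling between 22.3 M and 66.5 M. The 10 HSC markers listed were all tested, with Kit highest at a mean of 226 FPKM. Markers of other cells were present too, with the macrophage marker Lyz2 at 216 FPKM and the neutrophil marker S100a8 at 80.4 FPKM. In all 10 HSC markers both old replicates lay above both young ones, with a median log2 fold change of 0.41. Slamf1 and Procr rose with age in limma, and limma-voom called Slamf1 alone. Of 18318 genes tested in limma, 467 passed at a Benjamini-Hochberg adjusted p under 0.05 (2.55%), of which 368 were higher in old HSCs (2.01%) and 99 were lower (0.54%). All 9 genes passed the filter on low values, which asked for a scaled value of 10 or more in 2 or more of the 4 replicates. Of them 1, Clu, rose, 0 fell in limma or limma-voom, and 5 had an unadjusted p under 0.05, against 14% of all genes tested. With quantile normalization 1 rose (1.68% of all genes did) and 3, the C1q chains, fell (0.639%). Replicates of the ages did not overlap for 6 of the 9 genes, against 42.1% of all genes tested. Old lay above young in 3 (24.7% of all genes) and young above old in 3 (17.4%). The median log2 fold change of the 9 genes was -0.70, and that of all genes tested was 0.04.

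**Figure D1:**
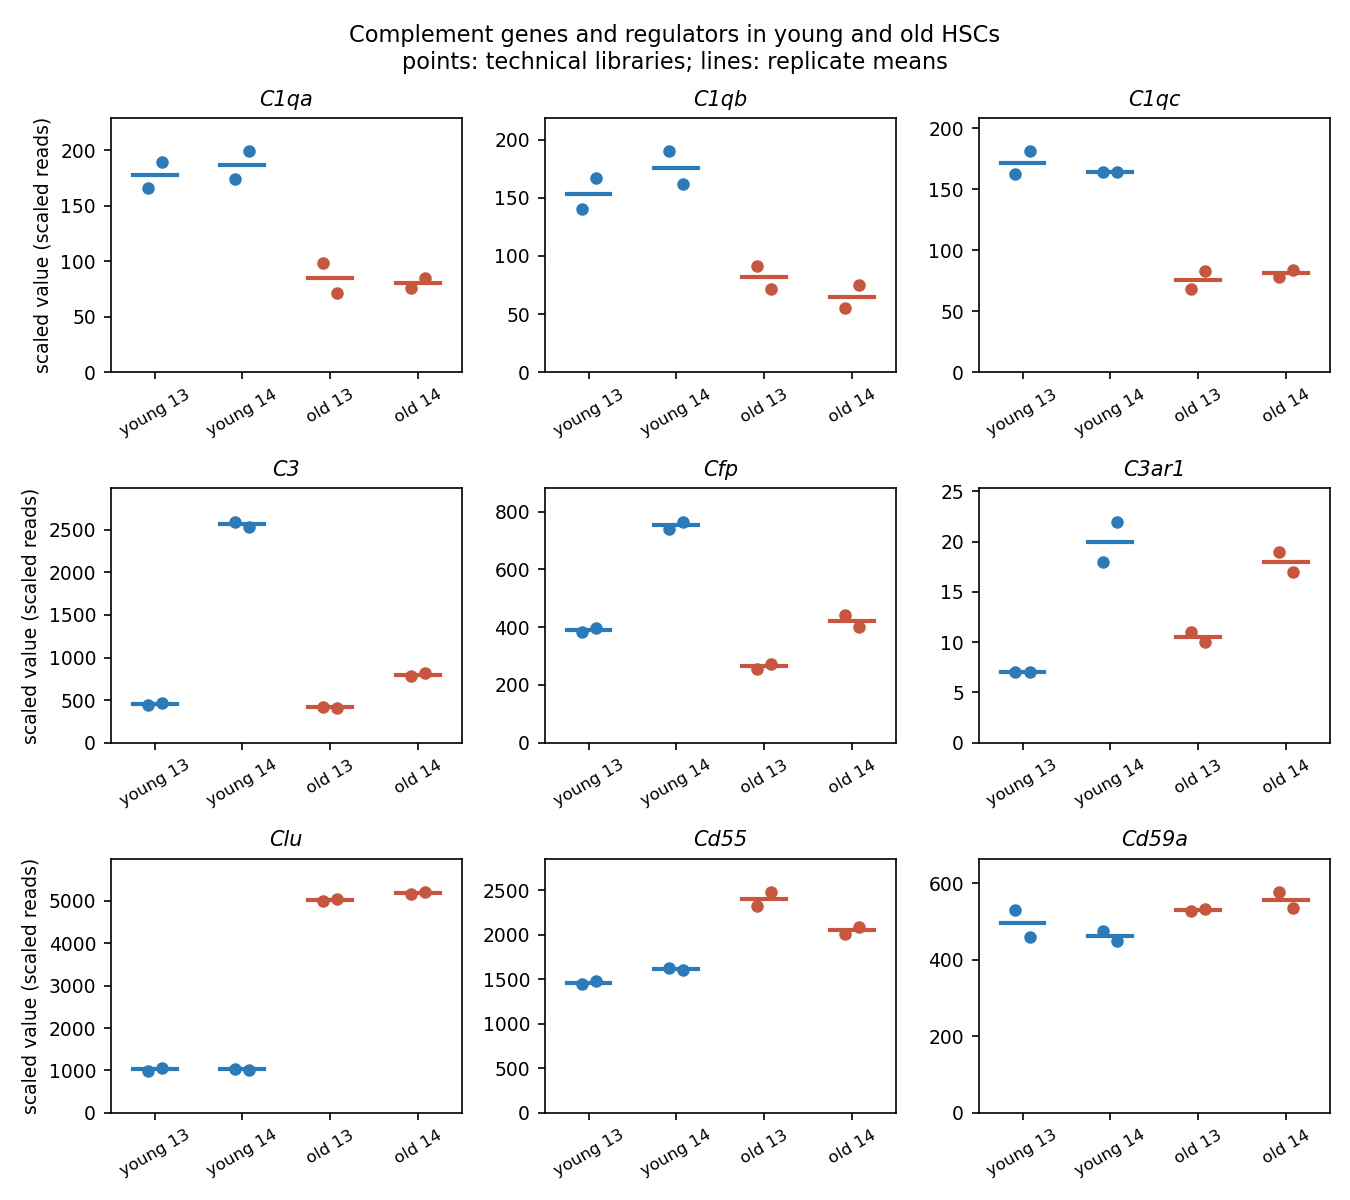
Scaled values of the 9 genes in each library (vertical axis, starting at 0 and differing between panels) for young (blue) and old (red) replicates; points are technical libraries and lines are replicate means. The old libraries of Clu lie between 4983 and 5209 and the young ones between 999 and 1066, whereas C3 stands at 2598 and 2538 in the libraries of young replicate 14 alone.

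Clusterin had the largest change of the 9 genes and the tightest replicates. Clu was 1033 and 1028 in young replicates 13 and 14, and 5006 and 5189 in old replicates 13 and 14. Every old library exceeded every young library, and technical libraries differed by at most 1.07-fold. The young mean was 1030 ± 3.54 and the old mean 5098 ± 129 (SD, n = 2 for each), and Clu rose by a log2 fold change of 2.31 (SE 0.13, 95% interval 1.99 to 2.62, limma adjusted p = 0.00193) or a fitted fold of 4.95. Among all genes tested, Clu had the 113th highest log2 fold change and the 5th smallest p. Per length it went from 11.5 ± 0.0393 to 56.7 ± 1.44 FPKM, so that 63.9% of tested genes lay below it in young HSCs and 94.5% in old HSCs. The authors' deposited table gives it a log2 fold change of 2.28 with an adjusted p of 4.57e-65. Without old replicate 13 the fold change was 2.33 and without old replicate 14 it was 2.28, and limma then called 0 of all genes (3669 and 1933 had an unadjusted p under 0.05), with Clu at an adjusted p of 0.124 and 0.158; with no filter on low values its adjusted p was 0.0551, and again 0 genes passed (2943 did at an unadjusted 0.05).

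Clu lies on the plus strand of chromosome 14 from 66587320 to 66600382 in the mm9 build, as the deposited table gives it. No other row of the table overlapped the span of any of the 9 genes. Platelets store clusterin, and megakaryocyte and platelet markers were therefore set beside it. Of 9 such markers tested 0 passed in limma or limma-voom, with 2 at an unadjusted p under 0.05, both higher in old HSCs. These were Clec1b, at 92.5 and 81.5 in the young and 180 and 189.5 in the old replicates, and Gp1bb. The row of Gp1bb, shared with Sept5, was 491 and 659.5 in the young and 968.5 and 1000.5 in the old replicates. The 9 markers had a median log2 fold change of 0.05, with 5 above 0 and 4 below 0. Their summed scaled values were 20265 and 25673 in the young and 23208 and 26111 in the old replicates, with Itga2b highest at 91.7 FPKM, and none of the listed markers was at 0 in all libraries. Their part in the change of Clu was not tested.

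The genes with the most similar profile to Clu over the 4 replicates were H2-T3, Tubg2, Eya4, Agtr1a and Cpeb1, with a root mean square difference of 0.04 to 0.08 on the centred log2 scale. H2-T3 was 116 and 108 in the young and 528 and 539 in the old HSCs. Eya4 was 105 and 112 in the young and 567 and 538 in the old HSCs. Because these genes were picked for their likeness to Clu, their close young replicates and several times higher old replicates follow from the choice. Tubg2 (10.5 and 10.5) and Cpeb1 (11 and 10) stood near the filter threshold of 10 in the young replicates.

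Clusterin is taken up by lipoprotein receptors and scavenger receptors, and of 5 tested genes of that list 1, Vldlr, rose. Vldlr, the very low density lipoprotein receptor, went from 2443 and 2594 in young to 4965 and 5059 in old HSCs, a log2 fold change of 0.99 (SE 0.13, limma adjusted p = 0.016). It did not pass without young replicate 13 (0.143), young replicate 14 (0.149), old replicate 13 (0.133) or old replicate 14 (0.194). Scarf1, a scavenger receptor that also binds C1q, was the most abundant of the list at 47.2 FPKM. Its scaled values were 6523 and 5119 in the young and 8057 and 7396 in the old replicates (limma adjusted p = 0.327). In limma Lrp8 had an adjusted p of 0.828 and Trem2 one of 0.895, and Lrp2 was not tested because its values stayed at or below 1.5.

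The C1q chains were lower in old HSCs by close to the same factor, and none of them passed the test over all genes. C1qa, the A chain, was 178 and 187 in the young and 84.5 and 80.5 in the old replicates. C1qb, the B chain, was 154 and 176 in the young and 81.5 and 65 in the old replicates. C1qc, the C chain, was 172 and 164 in the young and 75.5 and 81 in the old replicates. In each chain every young library exceeded every old library. The log2 fold change was -1.14 for C1qa (SE 0.23, 95% interval -1.69 to -0.59, limma adjusted p = 0.0615). It was -1.17 for C1qb (interval -1.78 to -0.56, limma adjusted p = 0.0769) and -1.10 for C1qc (interval -1.66 to -0.53, limma adjusted p = 0.0724). The ratio of young to old means was 2.21, 2.25 and 2.14 in the same order. All chains passed with quantile normalization, with adjusted p of 0.0376, 0.0463 and 0.0479. The authors' deposited table marks all chains as lower, with log2 fold changes of -1.17, -1.20 and -1.12.

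A C1q molecule holds its chains in equal number, and the messages were also close to each other per length. Young HSCs had 3.37 ± 0.118 FPKM of C1qa, 3.11 ± 0.301 of C1qb and 3.19 ± 0.101 of C1qc, and old HSCs had 1.53 ± 0.0524, 1.38 ± 0.221 and 1.49 ± 0.074. In no library did the highest chain exceed the lowest by more than 1.43-fold, and the smallest such ratio was 1.11. The order of the chains changed between libraries, so they did not differ beyond their spread. Technical libraries of 1 replicate differed by up to 1.38-fold in C1qa, and the reads behind a chain in a library were estimated at 39 to 306.

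The 3 genes lie within 18699 bases of chromosome 4 on the minus strand in mm9. C1qb spans 136436061 to 136442092, C1qc 136445717 to 136448829 and C1qa 136451831 to 136454759. Because these neighbours moved together, the 250 bases before the starts of C1qb (chr4:136886201-136886450) and C1qc (chr4:136892915-136893164) are shown 5′ to 3′ on the minus strand, from RefSeq's GRCm38.p6 annotation, which is not the build of the files. Of the 9 genes 7 had an entry there, and C1qa and Clu had none. Capitals mark matches to AGGAAGT, a core bound by Ets factors such as PU.1, on either strand.
C1qb: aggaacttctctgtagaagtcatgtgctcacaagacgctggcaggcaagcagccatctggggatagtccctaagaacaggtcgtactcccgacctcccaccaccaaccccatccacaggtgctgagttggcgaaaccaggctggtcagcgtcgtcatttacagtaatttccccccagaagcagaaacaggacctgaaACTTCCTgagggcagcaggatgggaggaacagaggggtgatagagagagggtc
C1qc: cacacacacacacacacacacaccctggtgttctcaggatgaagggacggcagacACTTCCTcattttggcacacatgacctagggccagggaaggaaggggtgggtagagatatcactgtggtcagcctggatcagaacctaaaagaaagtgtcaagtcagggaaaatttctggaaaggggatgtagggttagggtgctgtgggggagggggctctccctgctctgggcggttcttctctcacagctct
Both windows hold the match on the strand opposite to the gene, starting 53 bases before the start of C1qb and 195 bases before that of C1qc. The same letters are in 7.69% of all 32851 promoters of this length, and a match is a description, not a binding site. The C/EBP letters TTGCNNAA, the GATA letters AGATAA, the AP-1 letters TGANTCA, the Maf letters TGCTGAC and the TATA box TATAAA, searched in the same way on both strands with overlaps allowed, had no match in these windows.

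Macrophages of the bone marrow express C1q strongly, and their markers were therefore set beside the chains. Of 17 tested markers of that list 0 rose and 2 fell in limma, 15 had a fitted change below 0, and the median log2 fold change was -0.66. Both young replicates lay above both old ones for 9 of the 17, the ages overlapped for 7, and old lay above young for 1, Mertk, at 156 and 146 in the young and 195 and 213 in the old replicates. Cd5l, a macrophage-secreted protein, fell from 213 and 242 in young to 86.5 and 87 in old replicates (limma adjusted p = 0.0309). Vcam1, an adhesion molecule of macrophages and stroma, fell from 666 and 910 to 316 and 325 (limma adjusted p = 0.0274). Without old replicate 13 their adjusted p was 0.153 and 0.163, without old replicate 14 it was 0.274 and 0.294, without young replicate 14 it was 0.218 and 0.20, and without young replicate 13 it was 0.0959 and 0.0407. Others of the list stood low in both old replicates without passing, such as the haemoglobin scavenger receptor Cd163, at 840 and 887 in the young and 547.5 and 547 in the old HSCs. The summed list was 13483 and 25715 in the young and 11409 and 17939 in the old replicates, with Lyz2 highest at 216 FPKM. Lyz2 alone was 7890 and 16822 in the young and 7720.5 and 13044.5 in the old replicates. It made up most of each sum, so the sums mainly follow that gene. The marker Emr1 was 118 and 397 in the young and 80 and 179 in the old, Csf1r was 160 and 1212 in the young and 249 and 530 in the old, and Cd68 was 249 and 346 in the young and 162 and 255 in the old replicates. Each of these last markers was higher in replicate 14 than in replicate 13 at both ages, unlike the C1q chains. No listed marker that was found in the table was at 0 in all libraries. The part of these markers in the lower C1q values was not tested, and in such bulk samples fewer cells of a type and less RNA per cell cannot be told apart.

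**Figure D2:**
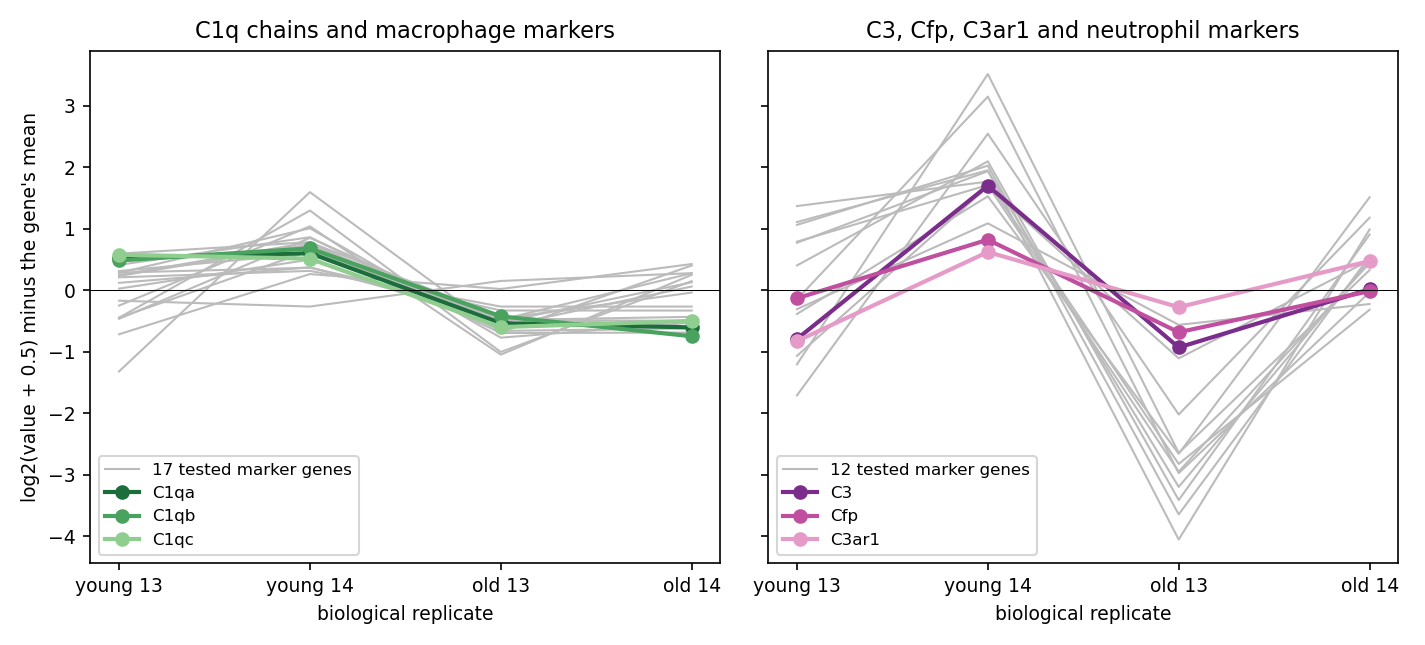
Log2(scaled value + 0.5) minus the mean of each gene over the 4 replicates (vertical axis), with lines joining the values of 1 gene; the left panel shows the C1q chains over 17 tested macrophage markers and the right panel shows C3, Cfp and C3ar1 over 12 tested neutrophil markers (grey). The C1q chains are high in both young replicates, whereas C3 and Cfp are highest in young replicate 14 and lowest in old replicate 13.

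The profiles of the chains over the 4 replicates differed from each other by 0.08 (C1qa and C1qc), 0.10 (C1qa and C1qb) and 0.18 (C1qb and C1qc) on the centred log2 scale. Among named genes the nearest to C1qa were Lypd6b, Rhag, Cd37, Arap3 and Cacna1h, at 0.04 to 0.06. The nearest to C1qb were Ptprm, Gata1, Cacna1h, Apcdd1 and Fcna, at 0.04 to 0.06. Gata1 was 1608.5 and 1857.5 in the young and 903 and 739.5 in the old replicates. Fcna, the fifth of them, is a ficolin that starts the lectin pathway and is made by macrophages. The nearest to C1qc were Piwil2 at 0.02 and Cfc1 at 0.04. With only 4 replicates many genes reach such distances.

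C3 differed more between replicates than between ages. It was 455 and 2568 in young replicates 13 and 14, and 414 and 797 in old replicates 13 and 14. Young replicate 14 stood 5.64-fold above young replicate 13, old replicate 14 stood 1.93-fold above old replicate 13, and the ages overlapped. Technical libraries differed by at most 1.05-fold, so the gap lay between biological replicates. The means were 1512 ± 1494 in young and 605 ± 271 in old HSCs, with a log2 fold change of -0.91 (SE 0.73, 95% interval -2.64 to 0.82, limma adjusted p = 0.68). Without young replicate 14 the fold change was 0.34 (adjusted p = 0.996), and without young replicate 13 it was -2.16 and passed (adjusted p = 0.03). The authors' deposited table marks C3 as lower, with a log2 fold change of -1.37 and an adjusted p of 4.32e-21.

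C3 lies on the minus strand of chromosome 17 from 57343396 to 57367559 in mm9. The 250 bases before its start (GRCm38.p6, chr17:57228137-57228386, minus strand, RefSeq) are shown because C3 is a textbook target of C/EBP factors of myeloid and acute-phase cells. Capitals mark the 1 match to TTGCNNAA, which begins 45 bases before the start.
C3: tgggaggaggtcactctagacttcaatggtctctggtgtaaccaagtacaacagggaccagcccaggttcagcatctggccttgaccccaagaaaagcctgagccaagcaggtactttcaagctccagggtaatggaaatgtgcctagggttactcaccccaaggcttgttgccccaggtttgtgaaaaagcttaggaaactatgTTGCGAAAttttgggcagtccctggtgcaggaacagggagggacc
Of all promoters of this length 9.56% hold the letters TTGCNNAA, and none of the other motifs searched matched in this window.

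Cfp and C3ar1 followed the same order of replicates within each age. Cfp, which encodes properdin and lies on the minus strand of chromosome X from 20502661 to 20508650, was 389 and 754 in the young and 265 and 422 in the old replicates. The ages overlapped, since old replicate 14 exceeded young replicate 13. Its log2 fold change was -0.70 (SE 0.36, 95% interval -1.54 to 0.15, limma adjusted p = 0.472), and it ranged from -1.17 without young replicate 13 to -0.22 without young replicate 14. The authors' deposited table marks Cfp as lower with a log2 fold change of -0.77. C3ar1, the receptor for the C3a fragment on chromosome 6 from 122797158 to 122806175, was 7 and 20 in the young and 10.5 and 18 in the old replicates. These values rest on an estimated 4 to 26 reads per library, and 2% of tested genes in young and 1.7% in old HSCs had a lower FPKM. Its log2 fold change was 0.20 (95% interval -1.20 to 1.61, limma adjusted p = 0.928), an interval that spans changes in both directions.

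Neutrophil markers, like C3 and Cfp, were highest in young replicate 14 and lowest in old replicate 13. Their summed scaled values were 6666 and 20710 in the young and 1301 and 9088 in the old replicates, with S100a8 highest at 80.4 FPKM. The steps differed in size, also within the list. Replicate 14 stood above replicate 13 by 3.24-fold in young and 20.1-fold in old HSCs for S100a8. The step was 6.73-fold in young and 3.02-fold in old HSCs for Elane, and 5.64-fold and 1.93-fold for C3. The listed markers thus varied in which age held the larger step. The macrophage markers Emr1 and Cd68 were also highest in young replicate 14 and lowest in old replicate 13. Of 12 tested neutrophil markers 0 passed in limma or limma-voom, with 5 at an unadjusted p under 0.05, all 12 had a fitted change below 0, and the median log2 fold change was -2.51. Both young replicates lay above both old ones for 5 of the 12, and the ages overlapped for 7, as they did for C3 and Cfp. None of the markers was at 0 in all libraries, and their part in the values of C3, Cfp and C3ar1 was not tested. The genes nearest to C3 in profile were Gapt, Jund, Ier2, Il1b and Junb, at 0.08 to 0.15 on the centred log2 scale. Jund, Ier2 and Junb are immediate early genes, and Junb was 2094 and 9178 in the young and 1488 and 3195 in the old replicates. Nearest to Cfp were Il1rn, Sorl1, Fam101b, Aif1 and Mtus1, at 0.04 to 0.09.

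The membrane regulators showed smaller differences. Cd55, which encodes decay-accelerating factor, was 1463 and 1617 in the young and 2401 and 2049 in the old replicates. Both old replicates exceeded both young ones, with means of 1540 ± 109 and 2225 ± 249. The log2 fold change was 0.53 (SE 0.15, 95% interval 0.16 to 0.89), with an unadjusted p of 0.0109 and a limma adjusted p of 0.165. The authors' deposited table marks Cd55 as higher, with a log2 fold change of 0.50 and an adjusted p of 0.00134. It lies on the minus strand of chromosome 1 from 132335607 to 132359317 in mm9. Its neighbouring copy Daf2 stayed between 3 and 10.5 in the replicates and was not tested, and reads shared by the copies could not be told apart here.

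Cd59a, which encodes the blocker of the membrane pore on chromosome 2 from 103935958 to 103955508, was 496 and 463 in the young and 531 and 557 in the old replicates. The replicate means did not overlap, but a library of young replicate 13 stood at 530, within the old range. Its log2 fold change was 0.18 (95% interval -0.21 to 0.58, limma adjusted p = 0.726), and it was not marked in the authors' deposited table. The interval holds no rise above 1.5-fold. The paralog Cd59b was 17 and 21.5 in the young and 30.5 and 27 in the old replicates (limma adjusted p = 0.58). Both copies are similar, so the split of reads between them is uncertain.

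CD55 and CD59 are held in the membrane by a glycosylphosphatidylinositol anchor. Of 28 tested genes of anchor synthesis and transfer 0 passed in limma or limma-voom, with 2 at an unadjusted p under 0.05, Pign and Pigy. Their median log2 fold change was 0.09. Pigt, a subunit of the transamidase that attaches the anchor, was the most abundant at 53.4 FPKM, with 6408 and 6656 in the young and 5908 and 8193 in the old replicates. Piga, of the enzyme that begins the anchor, was 1382 and 1468 in the young and 1274 and 1304 in the old replicates (limma adjusted p = 0.748).

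**Figure D3:**
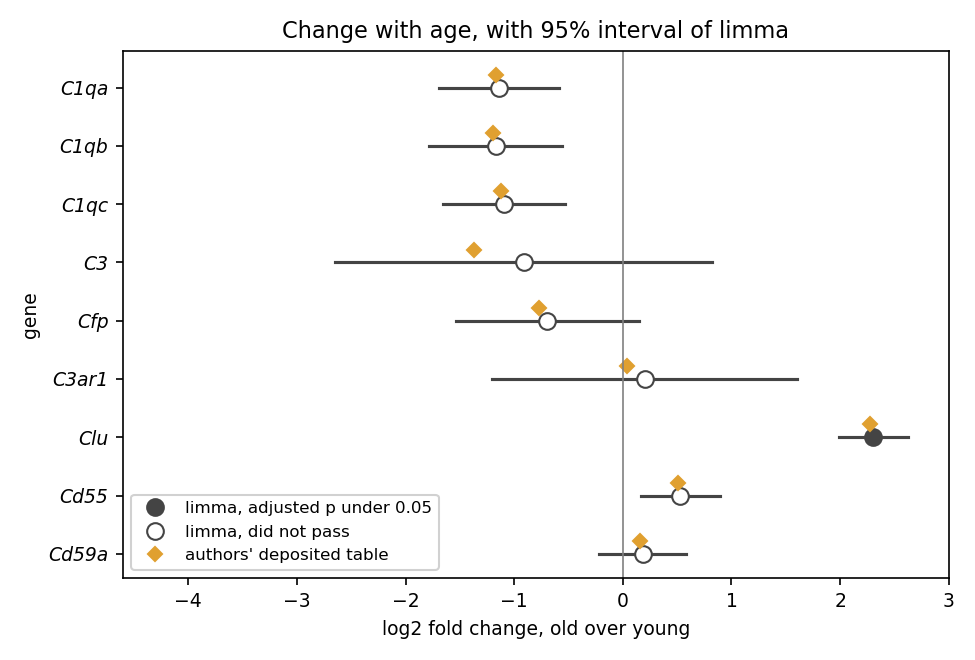
Log2 fold change of old over young HSCs (horizontal axis) with the 95% interval of limma (bars) for each gene; filled circles passed at an adjusted p under 0.05, open circles did not, and diamonds are the authors' deposited values. Clu stands alone at 2.31, the C1q chains share intervals below 0, and the interval of C3 reaches from -2.64 to 0.82.

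Placed in order of level per length, the 9 genes changed rank with age. In young HSCs Cd55 (12.2 ± 0.866 FPKM) and Clu (11.5 ± 0.0393) were highest and differed by less than the SD of Cd55. Cfp (7.54 ± 3.40), C3 (5.94 ± 5.87) and Cd59a (5.32 ± 0.255) followed with overlapping replicates, then the C1q chains, and C3ar1 was lowest at 0.0628 ± 0.0428. The place of C3 above the chains in young HSCs rested on replicate 14 (10.1 FPKM), since in young replicate 13 it was 1.79 FPKM against 2.90 to 3.29 for the chains. In old HSCs Clu (56.7 ± 1.44) stood above Cd55 (17.7 ± 1.98), Cd59a (6.03 ± 0.20) and Cfp (4.53 ± 1.46). C3 (2.38 ± 1.07) came next, and in old replicate 13, at 1.62 FPKM, it lay just above C1qa, at 1.57. The lowest was again C3ar1, at 0.0663 ± 0.0247.

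The fit and the authors' deposited table gave the same sign for each of the 9 genes. Both draw on the same series, so the shared sign is not independent evidence. The table marks 7 of them, against 11.8% of its 22284 genes with an adjusted p, with 2 as higher (6% of those genes) and 5 as lower (5.82%). Which libraries entered that comparison as replicates is not stated there.

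The wider cascade was followed through 58 rows of complement genes, listed by step of the cascade, of which 36 were tested. Of these 4 rose, C4b, C7, Clu and Thbd, and 0 fell in limma, with 11 at an unadjusted p under 0.05. Limma-voom called 3 higher, without Thbd, and 0 lower. With quantile normalization 3 rose and 3, the C1q chains, fell. Over all genes tested in limma 2.01% rose, 0.54% fell and 14% had an unadjusted p under 0.05. The 36 include the 9 genes described. Without these, 27 were tested, of which 3 rose, 0 fell and 6 had an unadjusted p under 0.05 in limma, with a median log2 fold change of 0.05. The median log2 fold change of the 36 was -0.02. Without old replicate 13 or old replicate 14 limma called 0 of them, without young replicate 14 it called C4b and Clu, and without young replicate 13 it called these as higher and C3 as lower.

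C4b encodes C4, which is cleaved by the enzyme that C1q activates. It was 266 and 219 in the young and 1326 and 1367 in the old replicates, a log2 fold change of 2.48 (SE 0.18, limma adjusted p = 0.00197) or a fitted fold of 5.58. C4a, a near-identical copy, was 27 and 27.5 in the young and 40.5 and 20.5 in the old replicates, so the division of reads between the copies is uncertain. C7, a component of the terminal pore, rose from 69 and 80.5 to 227 and 243 (log2 fold change 1.65, limma adjusted p = 0.0192), and did not pass without young replicate 13 (0.072) or young replicate 14 (0.056). For C4b and C7 both old replicates stood above both young ones by more than the spread within an age, whereas the ages overlapped for C4a.

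C8g, a chain of the pore component C8, had the highest level of the terminal list at 2.29 FPKM, above that of C7. It was 125 and 105 in the young and 109 and 134 in the old replicates (limma adjusted p = 0.942). C8b and C9 were at 0 in all libraries, and C6, C8a and Hc, which encodes C5, did not pass the filter. In the initiation list 8 genes were tested and 0 passed in limma or limma-voom, with 4 at an unadjusted p under 0.05, Fcna and the C1q chains. Masp2, a lectin pathway protease, had the highest level of that list at 13.6 FPKM. It was 2683 and 1445 in the young and 2938 and 1652 in the old replicates, with replicate 14 the lower at both ages. C1ra, a protease of the C1 complex, was 957 and 813 in the young and 1023 and 1134 in the old replicates (limma adjusted p = 0.529). Fcnb, a ficolin of myeloid cells, was 77.5 and 289 in the young and 16.5 and 108 in the old replicates.

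**Figure D4:**
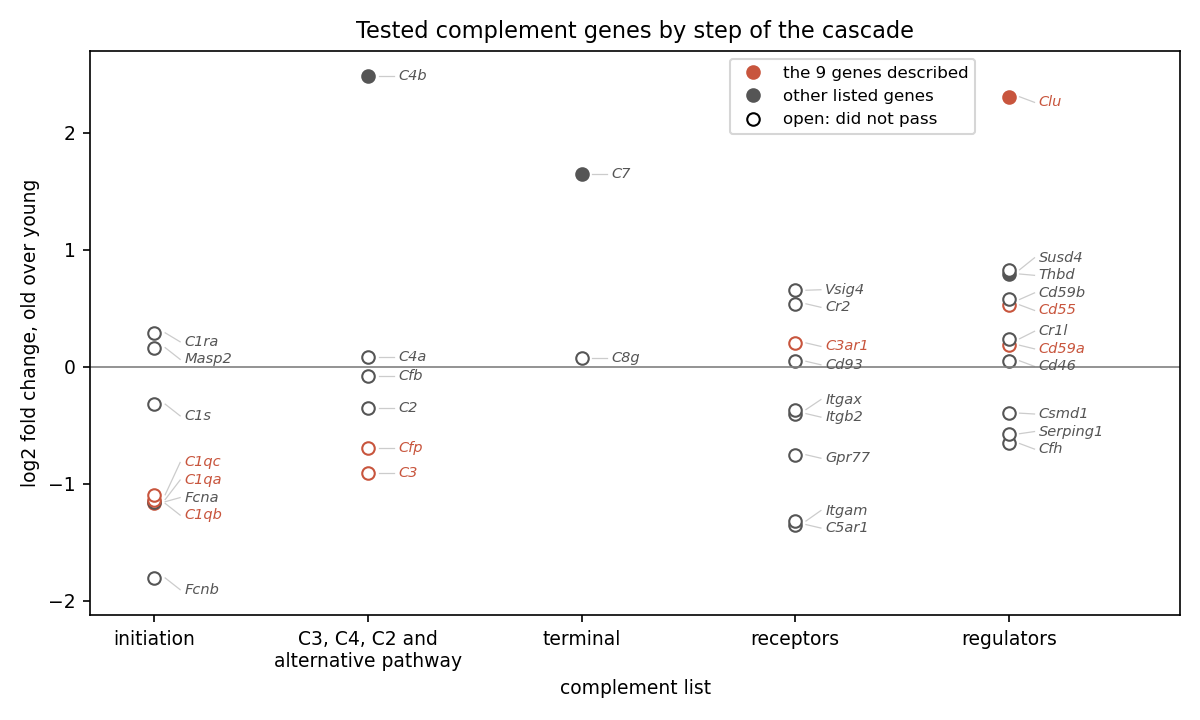
Log2 fold change of old over young HSCs (vertical axis) for the 36 tested complement genes by step of the cascade; red names are the 9 genes described, filled points passed at an adjusted p under 0.05 and open points did not. C4b, C7, Clu and Thbd are the filled points, all above 0.

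Among the receptors 9 genes were tested and 0 passed in limma or limma-voom, with 1, Itgam, at an unadjusted p under 0.05. Itgam, a chain of complement receptor 3, was 521 and 1350 in the young and 227 and 497 in the old replicates (limma adjusted p = 0.297), and so was highest in young replicate 14, as C3 was. Cd93, once described as a C1q receptor, was the most abundant at 50.5 FPKM, with 15769 and 17170 in the young and 15859 and 18172 in the old replicates. In the regulator list 11 genes were tested, and 2, Clu and Thbd, rose. Thbd, thrombomodulin, an endothelial anticoagulant receptor that also restrains complement, rose from 1033 and 1086 to 1840 and 1826, a log2 fold change of 0.79 (limma adjusted p = 0.0381). It was above the threshold with quantile normalization (0.0506) and limma-voom (0.0596), and without young replicate 13 (0.256), young replicate 14 (0.28), old replicate 13 (0.15) or old replicate 14 (0.257). Cr1l, the rodent membrane regulator Crry, had the highest mean over both ages among the regulators, 45.3 FPKM, below the 56.7 FPKM of Clu in old HSCs, with 3269 and 3551 in the young and 3414 and 4726 in the old replicates. Serping1, the C1 inhibitor, was 225 and 169 in the young and 132 and 129 in the old replicates (limma adjusted p = 0.358).

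Markers of other cells were compared in the same way. Of 7 tested endothelial markers Kdr rose and 0 fell, 5 had a fitted change below 0, among them Stab2 (112 and 107 in the young, 48 and 32 in the old replicates), and the median log2 fold change was -0.12. Pecam1 was the highest of the 7 at 18 FPKM and Cdh5 the lowest at 0.062 FPKM. Whether their RNA came from endothelium or from the sorted cells themselves was not tested. Of 9 stroma markers Col1a1 and Col3a1 fell, with the list summed at 6838 and 7304 in the young and 3247 and 3028 in the old replicates. Of 4 tested T and NK cell markers Klrb1c rose and 0 fell, with a median log2 fold change of -0.38; both young replicates lay above both old ones for Nkg7 and Cd4, which did not pass (limma adjusted p = 0.149 and 0.0897). Of 7 B cell markers 0 passed in limma or limma-voom, with 1 at an unadjusted p under 0.05. A fitted change below 0 was found in 5 of the 7, with a median log2 fold change of -0.73. Both young replicates lay above both old ones for 4, and old lay above young for 1. Without old replicate 13 or old replicate 14 the old group held a single sample, and the limma outcome there did not bear on these lists in particular. Endothelium, stroma, T and B cells can also make complement proteins or regulators, and the part of these cells in the values above was not tested.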

How the data were processed

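PolyA-selected RNA of sorted HSCs gave the TruSeq libraries, per the labels. Per the submitters' processing notes, the build was mm9 and DESeq was named, with no role given. Aligner and counter: not given in the sources used here. Gene models were merged from Ensembl, UCSC and RefSeq, per the file headers. The columns that the authors deposited under a count-like name were treated as a score: whole numbers whose gaps and doublings show reads multiplied by 1 factor per library and rounded. The deposited FPKM is that score times 1 constant per gene. The log2 fold changes and adjusted p-values in the authors' deposited table are theirs.

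Technical libraries were averaged. log2(value + 0.5) was modelled on age alone with limma 3.58.1, run in R 4.3.3, with the prior variance following the mean. Tests were two-sided, and p-values were adjusted by Benjamini-Hochberg over all genes tested. Fold changes are on that scale and understate those of low genes. The fit was tested on simulated data. Estimated reads speak only to counting error, and they also depend on rounding and on the estimated factor of each library. With 2 replicates per age an exact permutation test cannot reach 0.05, so none was run.

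The genes and lists (16 lists, matched by symbol, 7 of 192 symbols not found) were chosen with earlier results of these data known. Named genes are the 9, list genes that passed, the most abundant genes of each list and up to 5 nearest profiles. Marker genes that passed were named after their values were seen. So were Cd163, Mertk, Elane, Cdh5, Stab2, Cd4, Pign, Pigy, Piga, C4a, Cd59b, Daf2, Lrp2, C8b and C9. Alternatives changed the filter, pseudocount, scaling (median-ratio factors, quantile), unit (FPKM), tool (limma-voom) or libraries used, or added the replicate number as a block. Motifs were chosen with the promoter sequences in view. Results for 1 marker list and 1 receptor gene are not reported here.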

Additional observations from a re-analysis of the deposited data

How the results depend on the processing

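The log2 fold change of Clu lay between 2.26 and 2.33 under all 14 alternatives, and its adjusted p passed under 11 of them. The C1q chains had fold changes below 0 under all alternatives. With all replicates and no block, the adjusted p ranged from 0.0376 to 0.178 for C1qa, 0.0463 to 0.215 for C1qb and 0.0479 to 0.176 for C1qc. The lowest of these came with quantile normalization, the only such setting that passed. With the replicate number as a block, whose pairing is not established, the limma adjusted p was 0.000449, 0.000641 and 0.000769 in the same order. Over all genes limma called 467; the count was 302 for genes whose FPKM averaged 1 or more, 293 with the lower-numbered technical libraries, 0 with no filter on low values (2943 at an unadjusted p under 0.05; limma-voom with the filter called 342), and between 0 and 274 when 1 replicate was left out (0 without old replicate 13, with 3669 unadjusted p under 0.05, and 0 without old replicate 14, with 1933). The lone sample of an age is then assumed to vary like the other age. Of the 9 genes 1 was called; the count was 0 with no filter, 4 with quantile normalization, and 0 to 2 when 1 replicate was left out. Of the complement lists 4 were called; the count was 0 with no filter and 0 to 3 when 1 replicate was left out. When 1 replicate was left out, C3 ranged from -2.16 to 0.34 and C3ar1 from -0.52 to 0.93, C3 turning to higher without young replicate 14, and C3ar1 to lower without young replicate 13 and without old replicate 14 (-0.17). Median-ratio factors stood in for TMM, which needs counts. The cause of these changes was not tested, apart from the fewer samples or other genes that each alternative has by construction.

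The replicate numbers 13 and 14 occur at both ages, but the labels do not say that they mark a shared litter, batch or day. The difference of replicate 14 from replicate 13 correlated between ages across 18318 genes (r = 0.54), and with only 2 pairs this does not establish pairing. With the replicate number as a block, limma called 2766 genes, 16 of the complement lists and 7 of the 9 genes, that is, all except Cd59a and C3ar1.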
